A study of Mus musculus with 6 samples.

Results

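The oligoadenylate synthetases (OAS) are antiviral enzymes and enzyme relatives whose genes are switched on by interferon. The family studied here holds 8 of the 23351 genes in the deposited expression table, namely Oas1a, Oas1b, Oas1c, Oas1g, Oas2, Oas3, Oasl1 and Oasl2. They were picked by symbol, and the family itself was chosen from its lower values in Clod-lip than in Empty-lip in these same libraries. Its Clod-lip and Empty-lip values are therefore a description: no p is given for a member, and counts of members called stand only beside the share of all genes called.

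RNA came from repair tissue of C57BL/6 mice, a mixture of periosteum and quadriceps muscle lying on injured bone. The 3 Clod-lip libraries come from mice injected with liposomes that the table's columns name clodronate, a drug that kills the phagocytes that take the liposomes up. The 3 Empty-lip libraries come from mice given empty liposomes, and strain, tissue and injury are common to both groups. The sources used here do not give dose, time after injury, the animals' age or whether a library is 1 animal or a pool, so the spread between libraries may be technical.

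OAS proteins bind double-stranded RNA, a sign of viral infection, and then join ATP into short oligoadenylate chains. Those chains act as an antiviral second messenger inside the cell. Interferon raises OAS transcription through the factor ISGF3, which includes STAT2 and IRF9 and binds the interferon-stimulated response element (ISRE) near the start of its target genes. Macrophages and monocytes are among the cells that express the family strongly, though most nucleated cells can induce it.

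Promoter sequence is shown first because it played no part in choosing the family, and a motif recurs there in some members, not all. Windows from 250 bases before to 50 bases after the transcription start (RefSeq, GRCm38.p6, the same build as mm10) were available for 6 of the 8 genes, the exceptions being Oas1b and Oas2. The ISRE core was searched on both strands as GAAA, any 2 bases, then GAAA, and it occurred in 4 of the 6 windows, those of Oas1a, Oas1g, Oas3 and Oas1c. It occurred in 1131 of 32851 promoter windows in the whole table, or 3.44%. With the 250 bases before the start alone, the figures were 4 of 6 windows and 2.98% of all windows. The stretches of 60 bases below hold these matches, written 5′ to 3′ on the strand of the named gene with the matched bases in capitals. They are chr5:120907526-120907585 (minus strand) for Oas1a, chr5:120887614-120887673 (minus) for Oas1g, chr5:120777710-120777769 (minus) for Oas3, and chr5:120812575-120812634 (plus) for the stretch shared by Oas1b and Oas1c.
Oas1a: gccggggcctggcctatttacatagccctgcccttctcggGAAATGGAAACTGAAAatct
Oas1g: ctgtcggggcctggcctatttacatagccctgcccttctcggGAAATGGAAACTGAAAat
Oas3: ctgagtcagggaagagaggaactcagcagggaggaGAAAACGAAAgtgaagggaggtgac
Oas1b: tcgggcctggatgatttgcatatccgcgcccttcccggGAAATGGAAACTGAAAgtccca

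In Oas1a and Oas1g the capitals are 16 identical bases in which one core overlaps the next. They lie from -20 to -5 in Oas1a and from -18 to -3 in Oas1g, counted from the RefSeq start. The same 16 bases lie between Oas1b and Oas1c, which point away from each other with 120 bases between their starts. They run from -22 to -7 before Oas1b, and on the opposite strand from -114 to -99 before Oas1c. The start of Oas1b, which has no RefSeq window, is that of its GENCODE gene model. In Oas3 the core is single, at -75 to -66. The 16 bases were looked up after the matches had been seen, and 7 of the 32851 windows (0.0213%) hold them, under the symbols Oas1a, Oas1c, Oas1g, Apol9a and Apol9b. The windows of Oas1a and Oas1g were 88.8% identical over 294 aligned bases, so these windows are not independent. The gamma-activated site TTCNNNGAA, an element of interferon gamma responses, was found in Oas1a alone of the 6 windows, at -98 to -90, against 8.3% of all windows. Its pattern reads the same on both strands, so any match is found on both. A match in letters does not show that a factor binds there, and the 2 Oasl windows, which hold neither motif, cover 300 bases only.

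The genes lie on chromosome 5 in a pair of clusters (GENCODE annotation of GRCm38). Oas2 (120730333-120749853, 12 exons), Oas3 (120753098-120777661, 16 exons), Oas1c (120800194-120812514, 7 exons), Oas1g (120876142-120887613, 7 exons) and Oas1a (120896256-120907521, 7 exons) are on the minus strand. Oas1b (120812635-120824163, 6 exons) lies among them on the plus strand. Oasl2 (114896936-114912234, 6 exons) and Oasl1 (114923240-114937915, 7 exons) are neighbours on the plus strand, some distance away. Coding length ran between 1086 bases in Oas1c and 3414 in Oas3. The longer coding sequences of Oas2 and Oas3 hold synthetase units in tandem.

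**Figure D1:**
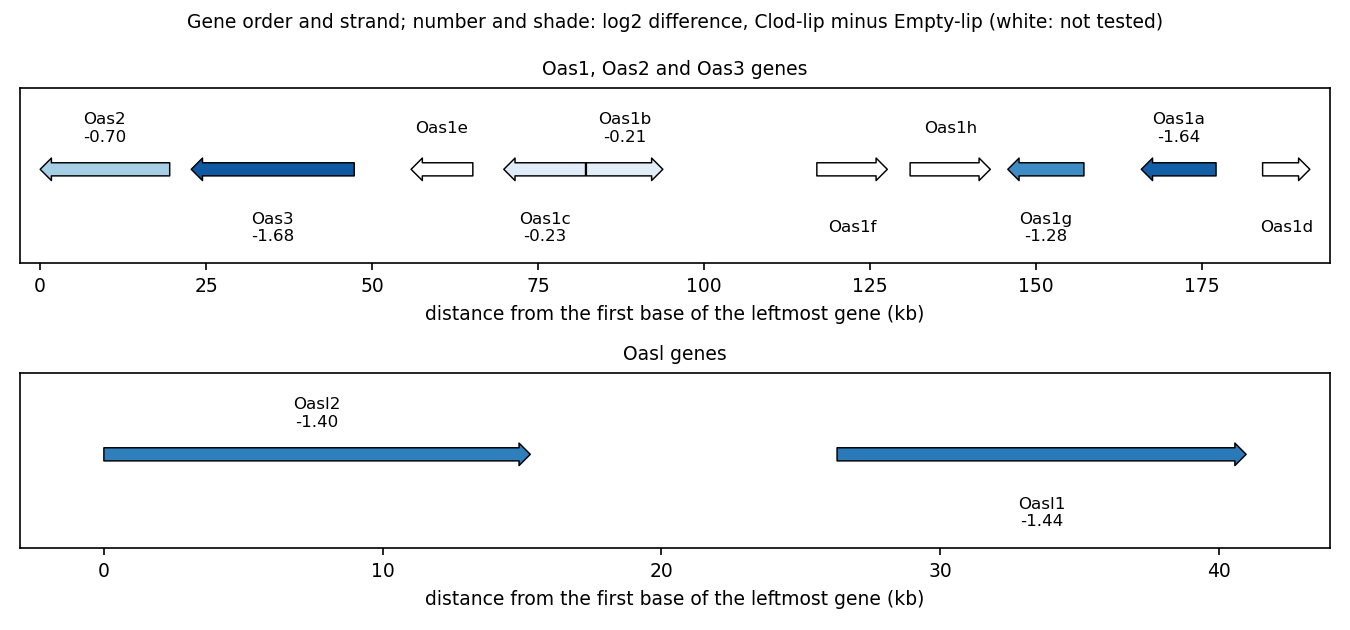
Gene order and strand of the OAS genes, with distance in kb from the leftmost gene of each cluster on the x axis, and arrows pointing in the direction of transcription. The number and the shade give the log2 difference in FPKM + 1, Clod-lip minus Empty-lip. The lowest value is that of Oas3 (-1.68), and Oas1b (-0.21) and Oas1c (-0.23), which share a divergent start region, are nearest 0. White genes were not tested.

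Levels are in FPKM, which divides fragments by transcript length and library size, so that genes can be set side by side. Oas1a and Oas1g are 96.7% identical over 1101 coding bases, and 57.6% of the 50-base windows of the Oas1a transcript also occur in Oas1g, with 54.1% the other way round. The sources used here do not say how reads matching both were counted, so the division of signal between Oas1a and Oas1g is uncertain. Of 50-base windows, 10.7% in Oas1c and 1.34% in Oas1b occur in another OAS gene, and 0% in Oas2, Oas3, Oasl1 and Oasl2. Other pairs of members were 58.6% to 79.9% identical in coding sequence.

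Relative to Empty-lip 1, the steps between low values gave depths of 0.994 to 1.13, and absolute depth is unknown. The FPKM share of small RNA genes was 32.7%, 0.189% and 0.0968% in Clod-lip 1, 2 and 3, and 45.1%, 39.1% and 47.7% in Empty-lip 1, 2 and 3. Setting them aside and rescaling changed no direction among the 8 OAS genes. Defining genes of the labelled tissue were present in every library, with 12 skeletal muscle markers summing to 25199 to 27397 FPKM in Clod-lip, against 11568 to 15787 FPKM in Empty-lip, and 6 fibroblast and periosteum markers summing to 4395 to 4890 and 4173 to 4973 FPKM in the same order. Clod-lip 2 stood apart from Clod-lip 1 and 3 for the OAS genes.

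All 8 OAS genes had a lower mean in Clod-lip than in Empty-lip, and the 5 most affected had Clod-lip means of 27.5% to 40.2% of their Empty-lip means. Summed over the family, expression was 28.9, 68.5 and 37.1 FPKM in Clod-lip 1, 2 and 3, and 115, 135 and 113 FPKM in Empty-lip 1, 2 and 3. The group means were 44.8 ± 20.9 FPKM in Clod-lip, against 121 ± 12.6 FPKM in Empty-lip (SD, n = 3 libraries each), so Clod-lip held 37.1% of the Empty-lip level. Every Clod-lip library lay below every Empty-lip library, with Clod-lip 2 the nearest to them. In this bulk tissue, fewer cells of a type and less OAS RNA per cell cannot be told apart.

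**Figure D2:**
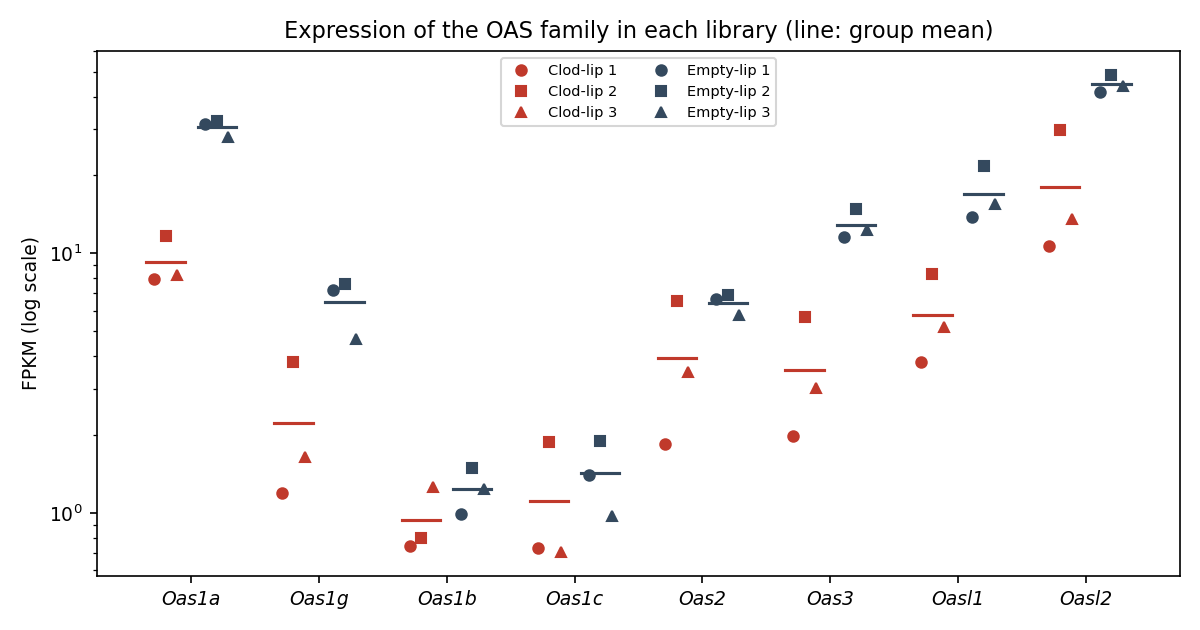
FPKM on a log scale for the 8 OAS genes in each library, with a line at each group's mean (Clod-lip red and left, Empty-lip blue and right, n = 3 libraries each). The groups are separate for Oas1a, Oas1g, Oas3, Oasl1 and Oasl2 and overlap for Oas1b, Oas1c and Oas2. Clod-lip 2, the red square, is the highest Clod-lip library for 7 of the 8 genes.

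Oas1a, an active synthetase, stood at 7.96, 11.6 and 8.21 FPKM in Clod-lip 1, 2 and 3, against 31.5, 32.4 and 28.0 FPKM in Empty-lip 1, 2 and 3. The groups were far apart and each was tight, with means of 9.26 ± 2.03 and 30.6 ± 2.32 FPKM in that order. The log2 difference in FPKM + 1, Clod-lip minus Empty-lip, was -1.64 ± 0.14 (SE), the smallest SE of the family. Its close copy Oas1g stood at 1.19, 3.82 and 1.65 FPKM in Clod-lip 1, 2 and 3, against 7.24, 7.62 and 4.66 FPKM in Empty-lip 1, 2 and 3. These groups were also separate, but Clod-lip 2 came within 1 FPKM of Empty-lip 3, and the log2 difference was -1.28 ± 0.31. The ratio of Oas1a to Oas1g was 4.90 ± 1.82 in Clod-lip and 4.87 ± 0.986 in Empty-lip, a difference far inside the spread.

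The remaining Oas1 genes were near the lower limit of what was tested, a mean of 0.5 FPKM. Oas1b, which in mouse lacks synthetase activity and confers resistance to flaviviruses, carries a premature stop in C57BL/6 and is annotated as a polymorphic pseudogene. It stood at 0.747, 0.798 and 1.26 FPKM in Clod-lip 1, 2 and 3, against 0.991, 1.48 and 1.23 FPKM in Empty-lip 1, 2 and 3. The groups overlapped, Clod-lip 3 lying above 2 of the Empty-lip libraries, and the log2 difference was -0.21 ± 0.18. Oas1c, a further Oas1 copy, stood at 0.733, 1.88 and 0.708 FPKM in Clod-lip 1, 2 and 3, against 1.40, 1.89 and 0.968 FPKM in Empty-lip 1, 2 and 3. Here Clod-lip 2 nearly equalled the highest Empty-lip library, and the log2 difference was -0.23 ± 0.26. The divergent pair around the shared ISRE stretch had the smallest differences of the family, on a scale that understates changes at such low levels. As a ratio of mean FPKM, Clod-lip was at 75.7% of Empty-lip for Oas1b and 77.9% for Oas1c.

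Oas3, which has tandem synthetase units, stood at 1.97, 5.66 and 3.01 FPKM in Clod-lip 1, 2 and 3, against 11.5, 14.8 and 12.3 FPKM in Empty-lip 1, 2 and 3. All 3 Clod-lip libraries lay below 6 FPKM and all 3 Empty-lip libraries above 11, with a log2 difference of -1.68 ± 0.27. Oas2, its neighbour and the other gene with tandem units, stood at 1.84, 6.53 and 3.47 FPKM in Clod-lip 1, 2 and 3, against 6.66, 6.90 and 5.76 FPKM in Empty-lip 1, 2 and 3. Clod-lip 2 lay inside the Empty-lip range, so the groups overlapped, and the log2 difference was -0.70 ± 0.32. The ratio of Oas3 to Oas2 was 1.07, 0.867 and 0.868 in Clod-lip 1, 2 and 3, against 1.73, 2.15 and 2.13 in Empty-lip 1, 2 and 3. These ratios did not overlap, and Clod-lip 2, which differed from Clod-lip 1 and 3 in the level of both genes, had nearly the same ratio as Clod-lip 3.

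The Oasl genes encode OAS-like proteins with ubiquitin-like domains. Oasl1, which lacks synthetase activity and in mouse represses translation of the interferon regulator Irf7, stood at 3.81, 8.32 and 5.21 FPKM in Clod-lip 1, 2 and 3, against 13.8, 21.6 and 15.4 FPKM in Empty-lip 1, 2 and 3. The groups were separate and Empty-lip 2 was well above the other Empty-lip libraries, with a log2 difference of -1.44 ± 0.26. Oasl2, which in mouse retains synthetase activity, was the most abundant member in every library, at 10.6, 29.9 and 13.6 FPKM in Clod-lip 1, 2 and 3, against 41.8, 48.7 and 44.2 FPKM in Empty-lip 1, 2 and 3. Clod-lip 2 was over 2 times Clod-lip 1 and 3 yet below all Empty-lip libraries, and the log2 difference was -1.40 ± 0.32.

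In order of mean level the family ran Oasl2, Oas1a, Oasl1, Oas2, Oas3, Oas1g, Oas1c and Oas1b in Clod-lip, and Oasl2, Oas1a, Oasl1, Oas3, Oas1g, Oas2, Oas1c and Oas1b in Empty-lip. In Clod-lip the library values of each gene overlapped with those of its neighbours in this order. In Empty-lip the overlapping neighbours were Oas3 and Oasl1, Oas2 and Oas1g, and Oas1b and Oas1c. These overlaps are across libraries. Within single libraries, Oasl2, Oas1a and Oasl1 ranked 1, 2 and 3 in all 6. Oasl2 made up 39.0 ± 3.99% of the family's FPKM in Clod-lip and 37.2 ± 1.80% in Empty-lip, and Oas1a 22.2 ± 5.31% and 25.4 ± 1.82% in the same order. The shares of Oasl1, at 13.1 ± 0.954% in Clod-lip and 13.9 ± 1.97% in Empty-lip, also differed by less than their spread. Oas3 held 7.73 ± 0.799% in Clod-lip against 10.6 ± 0.522% in Empty-lip, while Oas2 held 8.42 ± 1.78% against 5.34 ± 0.399%. Oas1b and Oas1c together stayed under 6% of the family in each library.

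By limma on log2(FPKM + 1) across the 13408 genes that averaged at least 0.5 FPKM, with Benjamini-Hochberg adjustment at 0.05, Oas1a, Oas3 and Oasl1 were called lower, 3 of 8 members. All 8 members had passed the filter on low values. Across all genes 1.21% were called lower and 4.05% were called in either direction. The groups did not overlap for 5 of 8 members, against 13.4% of all genes with every Clod-lip library below every Empty-lip library. The median log2 difference was -1.34 over the members and -0.01 over all genes tested. The members were chosen for these values, so nothing is read from the counts. Of the 10783 genes tested in the authors' deposited table, 5.41% were called lower. All members but Oas1b and Oas1c, which are marked as not tested there, were among them, 6 of 8 in the authors' deposited table. Without Clod-lip 2 the median over the members was -1.65 and 6 members were called, Oas1a, Oas1g, Oas2, Oas3, Oasl1 and Oasl2, while 5.83% of all genes were called lower. Oas1a alone was called without Clod-lip 1, without Clod-lip 3, without Empty-lip 1 or without Empty-lip 3, and 0 members were called without Empty-lip 2, with 5 at an unadjusted p under 0.05. In those 5 settings 0.00746% to 0.343% of all genes were called lower. With all 6 libraries, 2917 of the 13408 genes had an unadjusted limma p under 0.05. That number was not counted over all genes with a library left out, so unadjusted counts in those settings stand without a background share.

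**Figure D3:**
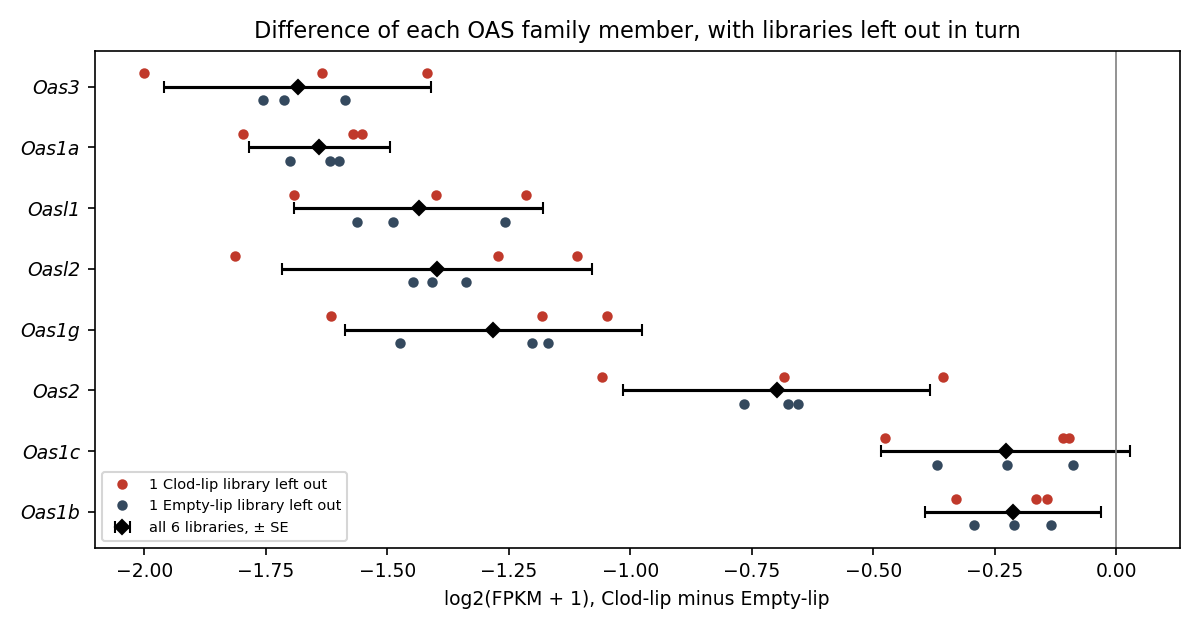
Log2 difference in FPKM + 1 for each OAS gene, Clod-lip minus Empty-lip, on the x axis, with all 6 libraries (diamond, ± SE) and with 1 library left out in turn (points). All points lie below 0. Leaving out Clod-lip 2 gives the lowest of the red points for each of the genes other than Oas1b.

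Relative to the Empty-lip mean, the average over the 8 genes on the log2 scale was -1.48, -0.56 and -1.17 in Clod-lip 1, 2 and 3, and -0.05, 0.19 and -0.14 in Empty-lip 1, 2 and 3. Clod-lip 1 was the lowest Clod-lip library for 7 of 8 members and Clod-lip 2 the highest for 7 of 8. Empty-lip 2 was the highest Empty-lip library for 8 of 8. Over all genes tested, Clod-lip 2 was highest of its group for 35.1% and Empty-lip 2 for 33.8%. After each group's mean was removed, the 21 pairs of members without Oas1b correlated with r between 0.81 and 0.98 over the 6 libraries, and the 7 pairs with Oas1b between -0.22 and 0.30. These correlations are a description of 6 libraries in which genes share depth and cell make-up. In Clod-lip 2, Oas1a was at 37.9% and Oas3 at 43.9% of their Empty-lip means, whereas Oas2 was at 101% and Oas1c at 132%.

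The genes whose log2 level ran most like the mean of the 8 members, each scaled to the same SD over the 6 libraries, among 12580 candidates averaging at least 1 FPKM, were Chmp4b, Ccl9, Pdpn, Sdc3 and Siglec1, with Pearson r between 0.994 and 0.998. Chmp4b encodes a subunit of the ESCRT-III membrane-cutting complex, Ccl9 a chemokine of myeloid cells, Pdpn podoplanin, Sdc3 a syndecan and Siglec1 the macrophage receptor sialoadhesin. Ccl9 stood at 52.3, 108 and 65.2 FPKM in Clod-lip 1, 2 and 3 and at 149, 186 and 143 FPKM in Empty-lip 1, 2 and 3 (log2 -1.13 ± 0.25). Chmp4b, the most alike, had a log2 difference of -0.32 ± 0.10. Likeness to a family that is lower in Clod-lip favours genes that are lower there too, so no p is given for these 5. After the group means were removed, the 5 most alike were Cers6, Chmp4b, Fndc3a, Ccl9 and St7, so 2 genes were in both sets. They were picked from many candidates over few libraries, so the names are a description only.

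Of the family's 4 other paralogues in the Oas1 cluster, Oas1d, Oas1e, Oas1f and Oas1h, none reached the filter. Oas1d stood at 0.198 FPKM in Empty-lip 2 and was listed at 0 in the other libraries, and the other 3 were listed at 0 in all 6. The nearest genes flanking the clusters that passed the filter on low values were not called. Genes under the filter were skipped. The nearest tested gene beyond Oasl1, 2210016L21Rik, had a log2 difference of -0.17 ± 0.13, and Ptpn11, beyond Oas1d, one of -0.01 ± 0.08. Ddx54, the nearest tested gene on the outer side of Oas2, had one of -0.14 ± 0.08, with a limma adjusted p of 0.346. The 8 flanking genes lay between -0.17 and 0.27.

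Abce1 and Pde12, which act in the oligoadenylate pathway, did not pass the test. Abce1, which recycles ribosomes and is also known as an inhibitor in this pathway, stood at 51.4 ± 4.68 FPKM in Clod-lip, against 52.8 ± 4.59 FPKM in Empty-lip. Pde12, a phosphodiesterase that degrades oligoadenylates, stood at 9.08 ± 0.968 FPKM in Clod-lip, against 7.91 ± 0.979 FPKM in Empty-lip. Their log2 differences were -0.04 ± 0.10 for Abce1 (limma adjusted p = 0.876) and 0.18 ± 0.13 for Pde12 (limma adjusted p = 0.475), and the groups overlapped for both.

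Upstream of the family, interferon ligand genes were at the edge of detection. Of 19 ligand genes, 16 were listed at 0 in all 6 libraries and none reached the filter. Ifng, which encodes interferon gamma, was listed at 0.302 and 0.322 FPKM in Clod-lip 1 and 2 and at 0 elsewhere, and Ifnb1, which encodes interferon beta, at 0.5 FPKM in Empty-lip 3 and at 0 elsewhere. Of 5 receptor genes tested, 1 fell and 4 were not called, with a median log2 difference of -0.33. Il10rb, a receptor chain shared by interferon lambda and interleukin 10, fell to 59.1 ± 8.17 FPKM in Clod-lip, against 84.6 ± 6.76 FPKM in Empty-lip (log2 -0.52 ± 0.11, limma adjusted p = 0.0496). Ifnar1, a chain of the receptor for interferons alpha and beta, named for its role, had a log2 difference of -0.37 ± 0.11 and was not called (limma adjusted p = 0.113).

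The factors that carry the interferon signal to OAS promoters were lower in part. Of 14 signalling genes, 4 fell, 0 rose and 10 were not called, with a median log2 difference of -0.45. Irf9, the DNA-binding part of ISGF3, fell to 13.3, 19.2 and 13.8 FPKM in Clod-lip 1, 2 and 3, against 26.2, 26.1 and 25.2 FPKM in Empty-lip 1, 2 and 3 (log2 -0.73 ± 0.14, limma adjusted p = 0.0359). Stat2, another part of ISGF3, fell to 9.57 ± 3.23 FPKM in Clod-lip, against 19.7 ± 1.70 FPKM in Empty-lip (log2 -1.01 ± 0.21, limma adjusted p = 0.0450). Irf7, which amplifies interferon production, fell to 41.7 ± 21.5 FPKM in Clod-lip, against 115 ± 19.8 FPKM in Empty-lip (limma adjusted p = 0.0412). Usp18, an inhibitor of receptor signalling that is itself induced by interferon, fell to 6.69 ± 3.33 FPKM in Clod-lip, against 20.4 ± 5.25 FPKM in Empty-lip (limma adjusted p = 0.0398). Irf7 and Usp18 both had a log2 difference of -1.54 ± 0.31, inside the range of the OAS genes.

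Genes of other proteins that meet viral nucleic acid were also lower in part. Of 12 sensors and adaptors, 4 fell, 0 rose and 8 were not called, with a median of -0.73 and 12 of 12 log2 differences negative. Those that fell were Dhx58, a helicase relative of RIG-I (log2 -1.21 ± 0.24), Adar, an editing enzyme of double-stranded RNA (-0.73 ± 0.14), Tlr7, an endosomal receptor for single-stranded RNA (-0.66 ± 0.13), and Tmem173, the adaptor STING (-0.55 ± 0.11), with limma adjusted p between 0.0383 and 0.0412. Of 20 other interferon-stimulated effectors, 7 fell, 0 rose and 13 were not called, with a median of -1.08 and all 20 log2 differences negative. The groups did not overlap for 18 of 20, against 13.4% of all genes with every Clod-lip library below every Empty-lip library. Mx1, a GTPase that blocks influenza virus, fell to 1.30, 4.58 and 2.09 FPKM in Clod-lip 1, 2 and 3, against 9.22, 11.1 and 9.16 FPKM in Empty-lip 1, 2 and 3 (log2 -1.66 ± 0.30, limma adjusted p = 0.0310). Rsad2, the antiviral enzyme viperin, and Ifit1, which binds foreign RNA ends, fell with log2 differences of -1.38 ± 0.23 and -1.59 ± 0.30, and Ifi35 with -0.75 ± 0.13 (limma adjusted p between 0.0272 and 0.0354). Against 2917 of all 13408 genes tested, 2 of 8 housekeeping genes had an unadjusted limma p under 0.05. Limma called 0 of these 8, with a median of -0.03. The most abundant of them were Ppia, at 2220 ± 206 FPKM in Clod-lip, against 2416 ± 73.5 FPKM in Empty-lip, and Gapdh, at 2326 ± 166 FPKM in Clod-lip, against 1950 ± 135 FPKM in Empty-lip (limma adjusted p = 0.531 and 0.200).

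Over the receptors, signalling genes, sensors, effectors and partners together, 16 of 54 genes fell and 0 rose, a count that hung on which libraries were kept. It became 39 without Clod-lip 2, 1 without Empty-lip 1, and 0 without Clod-lip 1, without Clod-lip 3, without Empty-lip 2 or without Empty-lip 3, where 36 to 38 genes had an unadjusted limma p under 0.05. Without Clod-lip 2, 4 of 5 receptors, 8 of 14 signalling genes, 9 of 12 sensors and 17 of 20 effectors were called lower. Calls rose over the whole table in that setting, with 5.83% of all genes called lower, against 1.21% with all 6 libraries. Of 16 effectors with a promoter window, 8 held the ISRE core, as did 3 of 12 signalling genes, 3 of 7 sensors, 0 of 5 receptors, 1 of 6 housekeeping genes and 11 of 19 interferon ligand genes, most of which were listed at 0 in these libraries. Apol9b, which shares the 16 bases of Oas1a, had a log2 difference of -1.11 ± 0.31 (limma adjusted p = 0.0937) and Apol9a one of -0.19 ± 0.38 (limma adjusted p = 0.828), so neither was called.

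**Figure D4:**
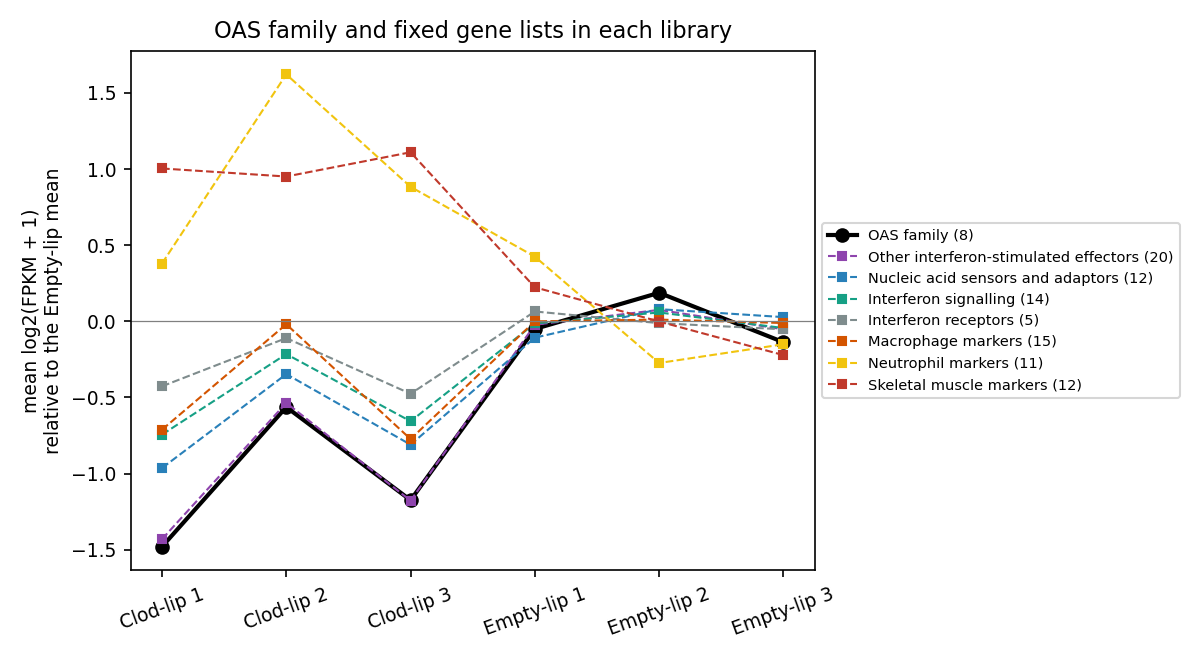
Mean log2(FPKM + 1) relative to the Empty-lip mean (y axis) in each of the 6 libraries (x axis) for the 8 OAS genes and for lists of other genes, with the number of genes tested in brackets. The OAS family and the other interferon-stimulated effectors nearly coincide in the Clod-lip libraries, with the family at -1.48, -0.56 and -1.17 in Clod-lip 1, 2 and 3. Skeletal muscle markers are higher in all 3 Clod-lip libraries, and neutrophil markers are highest in Clod-lip 2.

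Macrophage markers were lower in Clod-lip in part. Of 15 markers tested, 3 fell, 0 rose and 12 were not called, and 14 had a negative log2 difference, with a median of -0.47. Fcgr1, Mrc1 and Mertk fell, and limma called 10 without Clod-lip 2 but 0 when any other library was left out, with 6 to 8 at an unadjusted p under 0.05. Over all genes tested, 1.21% were called lower with all 6 libraries and 5.83% without Clod-lip 2. The 15 markers summed to 4816, 7062 and 4034 FPKM in Clod-lip 1, 2 and 3, against 7148, 7379 and 7546 FPKM in Empty-lip 1, 2 and 3 (exact two-sided permutation p = 0.1, the smallest that 3 against 3 allows). No marker was listed at 0 in all libraries. On the log2 scale the markers averaged -0.71, -0.02 and -0.77 in Clod-lip 1, 2 and 3, while the OAS genes averaged -0.56 in Clod-lip 2. The -0.02 in Clod-lip 2 averages markers that went both ways there. Cd14 was at 151 FPKM and Cd163 at 29.2 FPKM in Clod-lip 2, against means of 65.2 and 18.2 FPKM in Empty-lip. Emr1, at 144 FPKM in Clod-lip 2, lay just above every Empty-lip library. Csf1r (149 FPKM) and Lyz2 (4249 FPKM) lay inside the Empty-lip range. Fcgr1, Mrc1 and Mertk, the markers called lower, lay below every Empty-lip library, at 53.0, 91.5 and 13.5 FPKM in Clod-lip 2. Of the 15 markers, 7 had every Clod-lip library below every Empty-lip library, against 13.4% of all genes. Cd14, Cd163, Emr1, Csf1r and Lyz2 were named after their values were seen. Of 10 monocyte markers 2 fell, Ccr2 (log2 -1.34) and Plac8 (-1.75), by limma at the same threshold, with 4 lower and 1 higher, Ace, without Clod-lip 2 and 0 called when any other library was left out, where 4 to 7 had an unadjusted p under 0.05. Of the others, named after their values were seen, Nr4a1 averaged 33.0 FPKM in Clod-lip, against 14.7 FPKM in Empty-lip, and Ace 30.5 FPKM in Clod-lip, against 23.2 FPKM in Empty-lip, with every Clod-lip library above every Empty-lip library. Ly6c1 had a log2 difference of 0.23, and limma called none of these 3 (adjusted p between 0.0544 and 0.354). The 10 summed to 405 to 668 FPKM in Clod-lip, against 649 to 810 FPKM in Empty-lip (exact p = 0.2).

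Per 1000 FPKM of macrophage markers, the family held 6.00, 9.70 and 9.20 FPKM in Clod-lip 1, 2 and 3, against 16.1, 18.4 and 14.9 FPKM in Empty-lip 1, 2 and 3. The groups did not overlap, with means of 8.30 ± 2.01 in Clod-lip and 16.5 ± 1.75 in Empty-lip, or 50.5%. A single gene, Lyz2, makes up most of the marker sum, with 3197 of 5304 FPKM in Clod-lip, against 4312 of 7358 FPKM in Empty-lip. Clod-lip 2, the highest Clod-lip library in OAS level, was level with Clod-lip 3 on this measure. Per 1000 FPKM of monocyte markers, the family held 86.0 ± 15.7 FPKM in Clod-lip, against 164 ± 10.4 FPKM in Empty-lip. How much of the OAS difference goes with cell numbers was not tested.

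**Figure D5:**
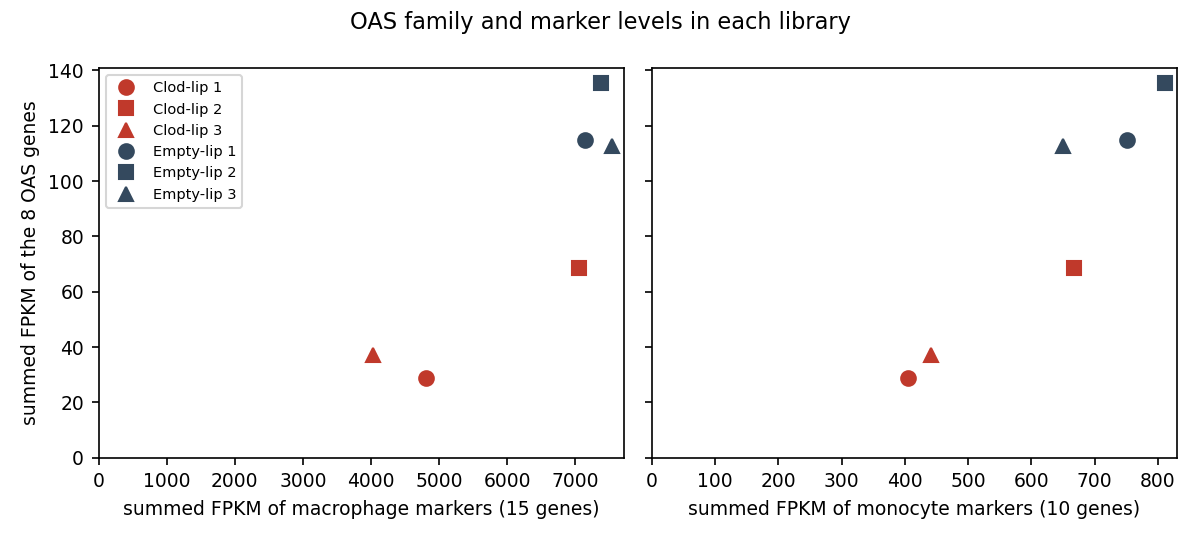
Summed FPKM of the 8 OAS genes (y axis) against summed FPKM of 15 macrophage markers (left) and 10 monocyte markers (right) in each of the 6 libraries, Clod-lip red and Empty-lip blue. Clod-lip 2 lies near the Empty-lip libraries on both x axes, at 7062 and 668 FPKM, but at 68.5 FPKM on the y axis it is below all 3 of them.

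Markers of other cells that can hold OAS transcripts were also measured. Over all 13408 genes tested, 381 were called higher with all 6 libraries and 610 without Clod-lip 2. Of 11 neutrophil markers tested, Camp, Ngp, Ltf and Elane rose and 7 were not called. A negative log2 difference was found for 3 of the 11, Csf3r (-0.27), Mmp9 (-0.07) and Cxcr2 (-0.0005), named after their values were seen. The 11 summed to 925 to 3526 FPKM in Clod-lip, against 566 to 1384 FPKM in Empty-lip (exact p = 0.3), with Clod-lip 2 the highest. By limma 0 neutrophil markers were called without Clod-lip 3 or without Empty-lip 2, with 5 and 4 at an unadjusted p under 0.05 in that order, and 2 were called without Clod-lip 1 and 4 without Clod-lip 2. All 12 skeletal muscle markers rose, with a median log2 difference of 1.01, and 12 were called without Clod-lip 2, but 7 were called without Empty-lip 3 and 0 without Clod-lip 1, without Clod-lip 3 or without Empty-lip 2, where all 12 had an unadjusted limma p under 0.05. Limma called 0 of 20 genes tested among markers of conventional dendritic cells, T and NK cells, B cells, endothelium and erythroid cells. Of these 20, 7 had an unadjusted limma p under 0.05, against 2917 of all 13408 genes tested. Without Clod-lip 2, 2 endothelial and 1 erythroid marker were called higher, and without Empty-lip 1, 1 conventional dendritic cell marker was called lower. Of 3 markers of plasmacytoid dendritic cells tested, 1 rose, Cox6a2, also a gene of skeletal muscle (log2 1.02 ± 0.15, limma adjusted p = 0.0170), and 0 were called without Clod-lip 1, without Clod-lip 3 or without Empty-lip 2. Siglech, named for its role as a defining gene of these cells, which are strong producers of interferon, stood at 0.557, 0.744 and 0.403 FPKM in Clod-lip 1, 2 and 3, against 0.887, 0.138 and 0.657 FPKM in Empty-lip 1, 2 and 3. Its groups overlapped, with a log2 difference of 0.03 ± 0.23. The part of these shifts in the lower OAS levels was not tested.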

How the data were processed

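Total RNA of 3 Clod-lip and 3 Empty-lip libraries was sequenced, and groups were taken from sample titles. TopHat and mm10 were named, without versions, per the submitters' processing notes, and the tool that made the values is not given in the sources used here. Deposited values were FPKM for 23351 genes, along with the p-value, q-value and test score of the authors' comparison. FPKM are not counts, so no count test was run, and absolute depth is unknown.

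Differences were tested on log2(FPKM + 1) of the 13408 genes averaging at least 0.5 FPKM, in limma 3.58.1 (R 4.3.3) with a prior variance that follows the mean level and Benjamini-Hochberg adjustment over all of them at 0.05. Summed marker levels were compared by exact two-sided permutation tests. All 8 members are described; of each list of interferon, pathway or macrophage, monocyte and neutrophil genes, up to 4 called genes of smallest p are named, or the 2 of highest level where none was called, and lists of 4 or fewer are given whole, apart from items not reported here. Members and lists were chosen with earlier results of these data known. Separate animals are not stated in the labels, and p-values therefore reflect the spread between samples. Promoter windows are from RefSeq (GRCm38.p6) and gene models from GENCODE, on the build of the files. Alternatives changed the pseudocount (0.1 and 0.5), the filter (none, or 5 FPKM), the scaling (quantile normalization, or rescaling without small RNA genes) or the prior (no trend), left out each library, or added the replicate number as a block.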

Additional observations from a re-analysis of the deposited data

How the results depend on the processing

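The sign of each member's log2 difference was negative under each alternative that could be fitted, 109 of 109 values, 3 members being under the filter of 5 FPKM. The alternatives refit the libraries whose lower Clod-lip values were used to choose the family, so nothing is read from these signs. The count of members called is given with the share of all genes called lower in the same setting. It was 3 with the replicate block (0.373%), with pseudocounts 0.1 (1.18%) and 0.5 (1.15%), and with quantile normalization (1.22%). It was 2 with no filter (0.415%) or without trend (0.358%). It was 4 with the 5 FPKM filter (2.32%) or rescaled without small RNA genes (1.505%). With 1 library left out, it ran between 0 and 6, against 0.00746% to 5.83% of all genes. Genes called in either direction over the whole table numbered 543. They numbered 170 with the replicate block, 312 with no filter, 284 without trend and 2 to 1392 with 1 library left out. Pathway genes called numbered 16 of 54, and 6 with the replicate block, 2 with no filter, 2 without trend and 0 to 39 with 1 library left out. Same-numbered libraries deviated from their group means with correlations of -0.08, -0.04 and 0.08, so the numbers were not taken to pair the samples. Of the 5 genes most like the family, 2 were shared after group means were removed. The cause of these shifts was not tested. With 3 libraries a group, exact tests cannot go below 0.1.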
